A study of Mus musculus with 30 samples.

Results

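Transforming growth factor beta (TGF-beta) signalling was described here through 9 genes: the ligand Tgfb1, the latency protein Ltbp1, the receptors Tgfbr1 and Tgfbr2, the signal transducer Smad3, the inhibitor Smad7, the co-repressors Ski and Skil, and Tgfbi, a secreted matrix protein named for its induction by TGF-beta. They were picked by name out of 37991 gene identifiers in a table of read counts from sorted mouse spleen cells. The pick was made with earlier results from all 5 groups of these samples in view, so the levels and differences of the 9 genes are given as a description, without a test. Tests are given for other genes of the pathway, in 7 lists of 92 genes in all, none of them among the 9. These lists too were chosen with earlier results of these data known, so their adjusted p-values and counts are not independent of that choice.

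The cells came from the spleens of 12 female mice aged 9.4 to 15.7 weeks, 6 WT B6 and 6 TLR7.1. TLR7.1 mice overexpress Tlr7, an endosomal receptor for single-stranded RNA. The labels name no promoter or cell type that limits this overexpression. Ly6C-high monocytes (Mono) and red pulp macrophages (RPM) were sorted from every mouse, and inflammatory hemophagocytes (iHPC) from the TLR7.1 mice, so each of the 5 groups held 6 libraries of 500 cells. All 3 gates took live CD45.2+ cells and excluded SiglecF+ and Ly6G+ cells. Monocytes were Ly6C+ Ccr2+ CD11b+. Red pulp macrophages were Ly6C- and F4/80+, with high VCAM, low CD31 and no or intermediate CD11b. Hemophagocytes were Ly6C- CD11b+ with high CD31, low VCAM and low F4/80. No hemophagocytes were sorted from WT mice, so that population was compared within TLR7.1 mice only. Libraries held 95002 to 1932427 counts (median 1157458.5). Tlr7 was at 107 to 384 counts scaled to a common library total by the TMM method of edgeR (CPM) in the 12 WT libraries and at 497 to 1531 CPM in the 18 TLR7.1 libraries. The transcripts of the gates followed the labels: Vcam1 averaged 3335 and 2486 CPM in WT and TLR7.1 RPM and at most 28.8 CPM in the other groups, Ccr2 was at 1033.5 CPM or more in every monocyte library and at most 53.5 CPM elsewhere, and Pecam1, the gene of CD31, was highest in iHPC at 391 to 605 CPM. In sorted bulk samples of this kind, fewer cells of a type and less RNA per cell cannot be told apart.

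TGF-beta is made as a latent complex, held back by its own propeptide and by latent TGF-beta binding proteins such as the Ltbp1 product, and must be freed before it acts. The active ligand binds a type II receptor (Tgfbr2), which recruits and phosphorylates a type I receptor (Tgfbr1). That receptor phosphorylates Smad2 and Smad3, which join Smad4 and enter the nucleus, while Smad7 blocks the receptor and Ski and Skil hold Smad targets silent. In macrophages the pathway is best known for shaping tissue-resident identity, most clearly in microglia, and for restraining inflammatory gene expression.

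The start sites of Tgfbi, Tgfbr1 and Tgfbr2 are shown because most of the differences between groups described here are in these 3 genes. The sequences are the 250 bases upstream of the RefSeq start, 5' to 3' on the gene's strand, in the GRCm38.p6 build. Capitals mark matches, on either strand, to any of 3 motifs. The Smad box is CAGAC or its reverse complement. The PU.1-type ETS core was searched as GAGGAA. The core of the interferon-regulatory element is a pair of GAAA runs with 2 bases between them. The motifs share no match here.
Tgfbi, chr13:56609336-56609585 (+): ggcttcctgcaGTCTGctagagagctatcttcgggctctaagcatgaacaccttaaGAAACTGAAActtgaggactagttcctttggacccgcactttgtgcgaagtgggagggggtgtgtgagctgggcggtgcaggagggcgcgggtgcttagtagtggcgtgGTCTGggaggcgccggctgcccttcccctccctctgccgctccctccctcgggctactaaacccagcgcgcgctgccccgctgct
Tgfbr1, chr4:47352972-47353221 (+): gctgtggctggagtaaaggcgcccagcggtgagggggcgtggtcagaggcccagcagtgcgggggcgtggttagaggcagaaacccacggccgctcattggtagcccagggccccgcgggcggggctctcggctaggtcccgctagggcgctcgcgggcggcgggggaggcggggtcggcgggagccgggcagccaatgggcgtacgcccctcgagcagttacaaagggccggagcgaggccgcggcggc
Tgfbr2, chr9:116175364-116175613 (-): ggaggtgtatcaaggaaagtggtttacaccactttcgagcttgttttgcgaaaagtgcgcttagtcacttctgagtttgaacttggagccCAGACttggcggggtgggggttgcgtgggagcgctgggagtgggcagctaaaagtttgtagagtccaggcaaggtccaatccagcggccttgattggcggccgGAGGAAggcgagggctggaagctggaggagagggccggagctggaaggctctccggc
The Tgfbi window held 2 Smad boxes, which begin 239 and 85 bases before the start, and 1 interferon-regulatory core, GAAACTGAAA, 194 bases before it. The Tgfbr2 window held 1 Smad box at 160 bases and 1 GAGGAA at 57 bases before the start. The first of 2 listed Tgfbr1 starts, printed here, held neither, and the window of the second held a Smad box at 203 bases and GAGGAA at 95 bases before that start. None of the 3 printed windows held the AP-1 site TGANTCA. Of 32851 promoter windows of the same length, 42.2% held a Smad box, 23.3% GAGGAA or its complement, 6.75% the AP-1 site and 2.98% the interferon-regulatory core. A match describes the letters of the window and says nothing about binding. Of the 9 genes, windows were taken for 7 and not for 2 (Smad7 and Skil). The search did not cover every chromosome, so a gene without a window may still have a RefSeq start.

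Of the 9 genes, 8 had enough counts to enter the fit, and Ltbp1 did not. The share of all 11030 genes past an adjusted p of 0.05 (edgeR quasi-likelihood test, Benjamini-Hochberg adjustment) is the background for any count of members. In TLR7.1 mice that share was 27.1% for iHPC against RPM, where 3 of the 8 passed, 38.7% for iHPC against Mono, where 5 passed, and 46.6% for RPM against Mono, where 4 passed. In WT mice it was 46.2% for RPM against Mono, with 3 of 8. Between genotypes it was 2.1% in Mono (1.8% higher and 0.299% lower), with 1 of 8, and 8.25% in RPM, with 2 of 8. For the genotype difference in RPM minus that in Mono it was 0.689% (0.399% higher and 0.29% lower), with 1 of 8, Tgfbi. The genes were picked with these contrasts known, so nothing is read from those counts. These contrasts share libraries with each other.

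**Figure D1:**
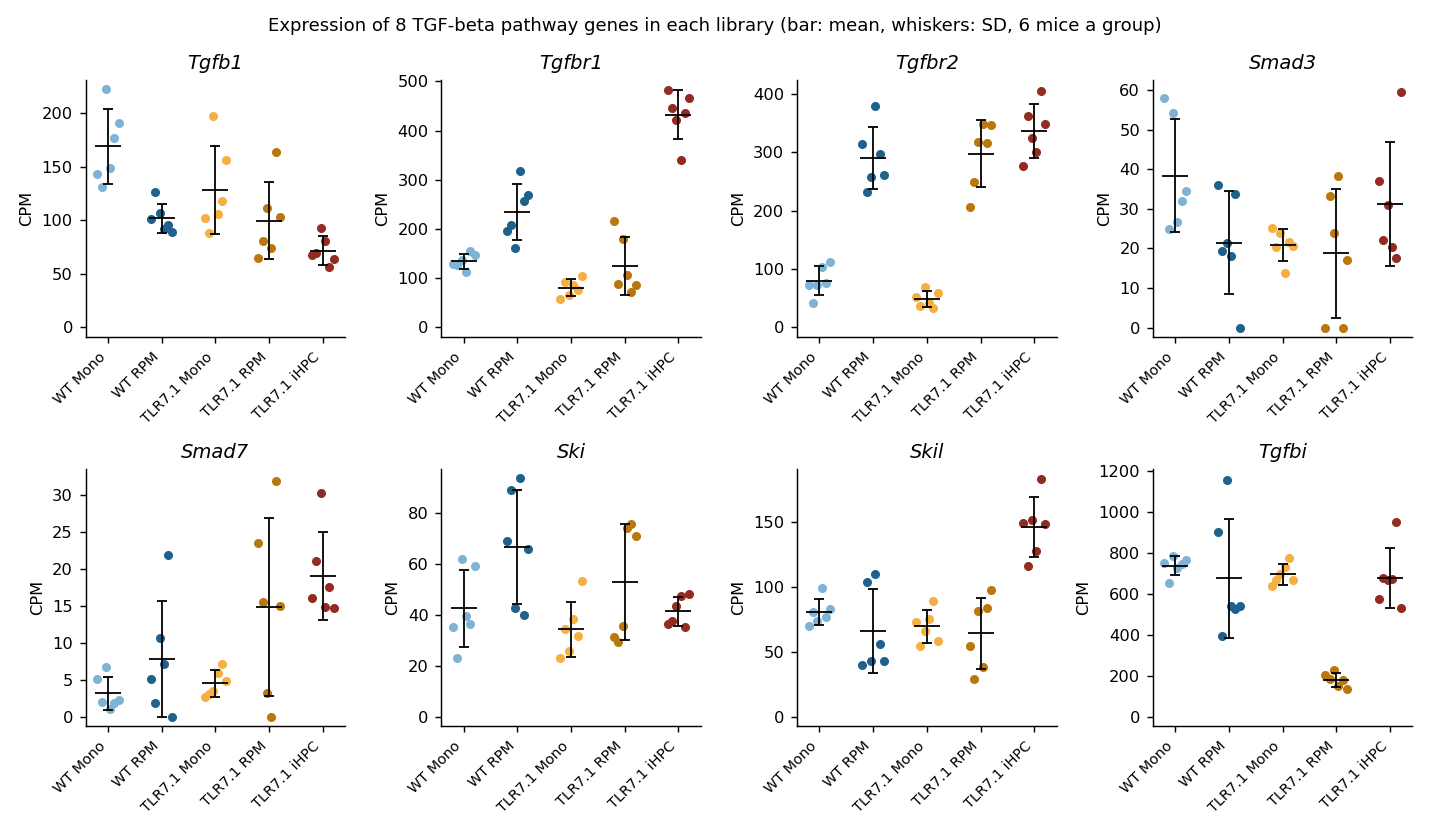
CPM of 8 genes (vertical axes, linear, 1 scale per gene) in the 5 groups (horizontal axis), with 1 point per library, a bar at the mean and whiskers of 1 SD (n = 6 mice a group). Tgfbi was lower in the 6 TLR7.1 RPM libraries than in the other 24, and Tgfbr1 and Skil were higher in the 6 iHPC libraries than in the other 24.

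Per length of exon, Tgfbi had the highest mean of the 9 genes in every group. It stood at 195 CPM per kb of exon for WT Mono and 180 for iHPC, and its lowest level was 47.9, for TLR7.1 RPM. The order of the other members differed between populations. In WT Mono the ligand Tgfb1 (33.5 CPM per kb) stood above Tgfbr1 (20.6) and Tgfbr2 (9.76). In iHPC Tgfbr1 and Tgfbr2 (66.2 and 41 CPM per kb) stood above Skil (15.1) and Tgfb1 (14.3). In WT RPM the receptors were at nearly equal levels per length (36.0 and 35.4 CPM per kb), and in TLR7.1 RPM Tgfbr2 was at 36.3 and Tgfbr1 at 19.1.

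Tgfb1 encodes the main TGF-beta ligand of immune cells. It ranged from 131 to 223 CPM in WT Mono (median 163) and from 88.6 to 198 CPM in TLR7.1 Mono (median 112). In WT RPM it ranged from 88.9 to 126 CPM (median 98.6), in TLR7.1 RPM from 65.1 to 163 CPM (median 91.8) and in iHPC from 56.3 to 93.2 CPM (median 68.7). Monocytes were thus at the top of the order and hemophagocytes at the bottom, with overlap between neighbouring groups. Only WT Mono and WT RPM did not overlap among the contrasts made, and the log2 difference there was -0.73 ± 0.217 (SE), lower in RPM in 6 of 6 mice. The iHPC level was lower than the Mono level in 6 of 6 TLR7.1 mice, with a log2 difference of -0.82 ± 0.212. Between genotypes the log2 difference was -0.40 ± 0.205 in Mono and -0.06 ± 0.223 in RPM.

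Ltbp1, which ties latent TGF-beta to the matrix, had 3 counts in all 30 libraries, 1 in a WT RPM library and 2 in an iHPC library. Its absence from the 9275218 counts of WT Mono allows at most 0.323 CPM, the level of 3 counts over the group's unscaled total. For TLR7.1 Mono and TLR7.1 RPM the same limits are 0.319 and 0.669 CPM.

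Of 12 other genes for ligands, latency and activation, only Nrros, Furin, Thbs1 and Itgav had enough counts to be tested. Nrros, which anchors latent TGF-beta on the surface of myeloid cells, averaged 687 ± 46.6 CPM (SD, n = 6) in WT Mono, 658 ± 56.4 in TLR7.1 Mono, 364 ± 108 in WT RPM, 255 ± 42.0 in iHPC and 178 ± 69.8 in TLR7.1 RPM. It fell between Mono and RPM in both genotypes, with a log2 difference of -0.96 ± 0.180 in WT (adjusted p = 4.93e-05, edgeR) and -1.91 ± 0.185 in TLR7.1 (adjusted p = 2.26e-10), lower in 6 of 6 mice each time. It also fell in TLR7.1 RPM against WT RPM, by 1.01 ± 0.187 on the log2 scale (adjusted p = 0.000721), though the groups overlapped. That call was lost when only those 12 libraries were fitted (adjusted p = 0.0522). Thbs1, whose product thrombospondin-1 can release active TGF-beta, averaged 249 ± 36.0 CPM in the monocytes of WT and 163 ± 45.5 CPM in those of TLR7.1 mice. It was at 0 to 3.60 CPM in WT RPM, 0 to 4.29 in TLR7.1 RPM and 4.03 to 18.9 in iHPC, and lower than in Mono in each of these contrasts (adjusted p at most 1.33e-11). Itgav, the alpha-V subunit of integrins that activate latent TGF-beta, rose in iHPC against Mono (218 ± 47.4 against 79.4 ± 19.5 CPM), by 1.46 ± 0.231 on the log2 scale (adjusted p = 5.08e-06), higher in 6 of 6 mice. Furin, a protease that cuts the ligand precursor, was lower in TLR7.1 RPM than in Mono by a log2 difference of -1.30 ± 0.394 (12.5 ± 5.82 against 30.7 ± 9.12 CPM, adjusted p = 0.00709).

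Tgfbr2 encodes the type II receptor, which binds the ligand first. It ranged from 42.5 to 111 CPM in WT Mono (median 74.8), from 33.3 to 68.8 in TLR7.1 Mono (median 47.4), from 232 to 378 in WT RPM (median 279), from 206 to 347 in TLR7.1 RPM (median 316) and from 277 to 405 in iHPC (median 336). Every RPM and iHPC library was above every Mono library. The log2 difference from Mono was 1.86 ± 0.199 for WT RPM, 2.60 ± 0.204 for TLR7.1 RPM and 2.77 ± 0.204 for iHPC, the last a 6.80-fold higher level. RPM and iHPC overlapped, with a log2 difference of 0.17 ± 0.190. Between genotypes the RPM levels differed by 0.03 ± 0.194 and the Mono levels by -0.71 ± 0.198, and both pairs of groups overlapped.

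Tgfbr1 encodes the type I receptor, the kinase that phosphorylates Smad2 and Smad3. In iHPC it ranged from 341 to 482 CPM (median 441), above all the other libraries, whose highest value was 319 CPM in a WT RPM library. It ranged from 113 to 155 CPM in WT Mono (median 133), 57.5 to 105 in TLR7.1 Mono (median 81.0), 161 to 319 in WT RPM (median 232) and 71.8 to 216 in TLR7.1 RPM (median 97.4). Both TLR7.1 groups thus sat below their WT counterparts. The Mono groups did not overlap, with a log2 difference of -0.74 ± 0.203, and the RPM groups overlapped, with -0.94 ± 0.212. The difference of these differences was -0.20 ± 0.293. The sum of 8 genes of neutrophils and granulocyte progenitors was 1.55 to 7.85 CPM in WT Mono, where 3 of the 8 were at 0 counts, and 116 to 1585 CPM in TLR7.1 Mono, where all were detected. Of the 5 tested, 5 were called higher in TLR7.1 Mono. The part of these transcripts in the Mono differences was not tested. In TLR7.1 RPM the libraries of mice 24068 and 24308, at 216 and 180 CPM, stood above the other 4, at 71.8 to 107 CPM. The RPM to Mono difference in TLR7.1 mice was 0.63 ± 0.209, with the higher value in RPM in 3 mice and in Mono in the other 3. It was 0.34 without mouse 24068 and 0.43 without mouse 24308, and no longer past the threshold in either fit or in a fit of those groups alone (0.70). In iHPC the level was 3.47-fold that in RPM (log2 difference 1.8 ± 0.210) and 5.37-fold that in Mono (2.42 ± 0.210), higher in 6 of 6 mice each time.

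Transcripts of basophils and mast cells accompanied the iHPC values. All 8 genes of that marker list were detected in iHPC, and their sum was 131 CPM in the library of mouse 24261 and 2837 to 5004 CPM in the other 5 libraries. The sum was at most 23.4 CPM in any other group, and 4 of the 8 genes were at 0 counts in each RPM group. The neutrophil and granulocyte progenitor sum was 959 CPM in the iHPC library of mouse 24261. Over the iHPC group that sum ranged from 19.6 to 1419 CPM, and over TLR7.1 RPM from 8.67 to 420 CPM. The part of either list in the iHPC differences was not tested. In the iHPC library of mouse 24261 Tgfbr1 was at 341 CPM, the lowest of the iHPC group and still above the other groups. There Tgfbr2 was at 299.8 CPM, Skil at 128 CPM and Tgfbi at 672 CPM. With that library as the sole iHPC sample, the log2 difference from RPM was 1.45 for Tgfbr1, 1.01 for Skil and 1.90 for Tgfbi, against 1.8, 1.19 and 1.90 over all 6 libraries. For fits with that sole library only sizes and directions of differences are given, since 1 library shows no spread within iHPC.

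Among 6 other receptor, co-receptor and decoy genes, 4 were tested. Bambi, a decoy that resembles a type I receptor without its kinase, was at 35.1 ± 6.32 CPM in WT Mono and at 3.59 ± 7.98 in WT RPM, where it fell by 3.17 ± 0.785 on the log2 scale (adjusted p = 0.00122), lower in 6 of 6 mice. In TLR7.1 mice it averaged 36.3 ± 13.1 CPM in Mono, 10.2 ± 14.4 in RPM and 44.2 ± 10.1 in iHPC. The iHPC to RPM difference of 1.97 ± 0.648 (adjusted p = 0.0212) was called over all mice, but not without mouse 24068, 24304, 24308 or 24380 (1.62 to 1.87). The RPM to Mono difference of -1.68 ± 0.640 (adjusted p = 0.0305) was lost in 5 of the 6 fits that left out a TLR7.1 mouse. No gene of this list passed between genotypes.

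Smad3, which carries the signal to the nucleus, was low everywhere. It ranged from 24.8 to 58.1 CPM in WT Mono (median 33.3), 13.8 to 25.1 in TLR7.1 Mono (median 21.1), 0 to 36.1 in WT RPM (median 20.4), 0 to 38.5 in TLR7.1 RPM (median 20.5) and 17.6 to 59.7 in iHPC (median 26.6). The groups overlapped in all 6 comparisons, and the log2 difference with the largest size was -0.87 ± 0.494, between the Mono groups. The 3 libraries without a Smad3 count were RPM libraries of 268275 to 403494 counts, in which 0 counts allow 7.81 to 12.0 CPM.

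Its partners were more abundant in monocytes. Of 5 genes for Smads and adaptors, 4 were tested, and all 4 fell in iHPC against Mono and in TLR7.1 RPM against TLR7.1 Mono, where 19.4% and 22.6% of all genes were called lower. In WT, 3 of the 4 fell in RPM against Mono, beside 22.5% of all genes. Smad2, which Tgfbr1 phosphorylates together with Smad3, averaged 184 ± 21.2 CPM in WT Mono and 71.1 ± 20.9 in WT RPM (log2 difference -1.32 ± 0.262, adjusted p = 9.51e-05). Smad4, the shared partner of all these Smads, went from 118 ± 16.4 to 52.7 ± 22.6 CPM (-1.22 ± 0.296, adjusted p = 0.000986). Zfyve9 (SARA), which presents Smad2 and Smad3 to the receptor, went from 175 ± 25.2 to 28.9 ± 22.7 CPM (-2.52 ± 0.419, adjusted p = 7.89e-06). In TLR7.1 mice the RPM to Mono log2 differences were -0.97 ± 0.255 for Smad2, -1.33 ± 0.289 for Smad4 and -2.27 ± 0.415 for Zfyve9 (adjusted p at most 0.00219), lower in 6 of 6 mice for each. In iHPC against Mono, Smad4 differed by -1.09 ± 0.280 (adjusted p = 0.00223) and Zfyve9 by -1.57 ± 0.386 (adjusted p = 0.00146). The Smad4 groups overlapped, and 1 of 6 mice had the higher value in iHPC. Strap differed there by -0.88 ± 0.263 (adjusted p = 0.00832), and its call was lost without mouse 24380 (-0.68). None of the 4 passed in iHPC against RPM, nor between genotypes.

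Smad7, the inhibitory Smad that TGF-beta itself induces, was near the limit of these libraries, with 261 counts in all. It ranged from 1.03 to 6.68 CPM in WT Mono (median 2.15), 2.64 to 7.21 in TLR7.1 Mono (median 4.17), 0 to 21.9 in WT RPM (median 6.18), 0 to 31.9 in TLR7.1 RPM (median 15.3) and 14.8 to 30.2 in iHPC (median 16.8). Every iHPC library was above every Mono library, with a log2 difference of 2.06 ± 0.645, which missed the threshold without mouse 24308 (1.804). With the library of mouse 24261 as the sole iHPC sample the difference was 1.69. The iHPC and RPM groups overlapped, at 0.47 ± 0.637. The RPM to Mono difference in TLR7.1 mice, 1.59 ± 0.663, passed the threshold over all libraries and missed it in 10 alternatives (1.28 to 1.76), among them the mouse as a block (1.44) and the fits without mouse 24068, 24107, 24304, 24308 or 24380. RPM had the higher value in 4 of 6 mice.

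Ski and Skil encode related proteins that hold Smad complexes in a repressed state and are destroyed when the pathway is active. Skil ranged from 116 to 183 CPM in iHPC (median 149), above every library of the other groups, whose highest value was 110 CPM. Its range was 70.1 to 98.9 CPM in WT Mono (median 78.6), 54.8 to 89.2 in TLR7.1 Mono (median 69.9), 39.6 to 110 in WT RPM (median 49.4) and 29.5 to 97.6 in TLR7.1 RPM (median 68.0). The log2 difference of iHPC was 1.19 ± 0.265 from RPM and 1.06 ± 0.256 from Mono, higher in 6 of 6 mice in both. Ski showed no such step. It ranged from 35.2 to 48.3 CPM in iHPC (median 40.5), within the range of TLR7.1 RPM (29.5 to 75.8, median 53.3), and its log2 difference there was -0.32 ± 0.303. In WT it ranged from 22.9 to 61.8 CPM in Mono (median 38.1) and from 39.8 to 93.6 in RPM (median 67.4), and in TLR7.1 Mono from 23.1 to 53.3 (median 33.0).

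**Figure D2:**
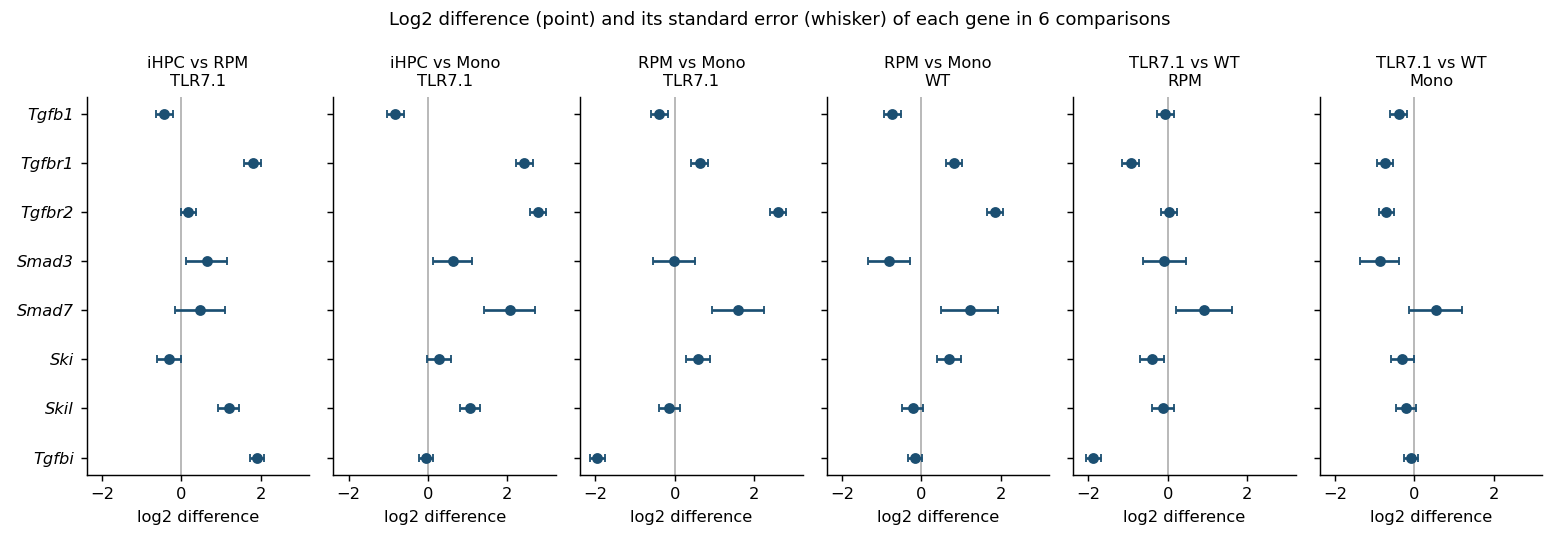
Log2 differences of 8 genes (rows) in 6 comparisons (panels), with the point at the estimate and whiskers of 1 standard error from the fit over all 30 libraries. Tgfbr1, Skil and Tgfbi lie to the right in iHPC against RPM (1.8, 1.19 and 1.90), and Tgfbi lies far to the left in TLR7.1 against WT RPM (-1.87) and near 0 in Mono (-0.09).

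The other inhibitors, ubiquitin ligases and co-repressors split by gene. Of 13 genes, 11 were tested, and in iHPC against RPM 4 were called higher and 2 lower, beside 13.6% and 13.5% of all genes. Sik1, a kinase of the salt-inducible family that TGF-beta induces, rose from 11.2 ± 10.6 to 75.8 ± 46.5 CPM (log2 difference 2.69 ± 0.544, adjusted p = 0.000262). Trim33, a ubiquitin ligase that acts on Smad4, rose from 33.2 ± 16.3 to 108 ± 40.1 CPM (1.62 ± 0.364, adjusted p = 0.000881). Wwp1, a ubiquitin ligase that works with Smad7 on the receptor, fell from 323 ± 79.1 to 58.3 ± 18.9 CPM (-2.44 ± 0.226, adjusted p = 2.85e-10). These 3 moved the same way in 6 of 6 mice, without overlap. When mouse 24261 alone stood for iHPC, Wwp1 kept its direction, and the log2 differences of Sik1 and Trim33 were 1.93 and 0.96. Wwp1 was in turn far higher in RPM than in Mono, by 3.79 ± 0.237 in WT (adjusted p = 6.07e-15) and by 3.33 ± 0.232 in TLR7.1 (adjusted p = 9.46e-14). Rnf111 (Arkadia), the ligase that removes Ski and Skil, rose in iHPC against Mono from 64.5 ± 7.52 to 130 ± 25.6 CPM (log2 difference 1.0 ± 0.218, adjusted p = 0.000405). Usp15, a deubiquitinase of the type I receptor, was lower in WT RPM than in WT Mono (119 ± 14.5 against 209 ± 19.4 CPM, -0.83 ± 0.179, adjusted p = 0.000262). Smurf2 and Tgif1, a ubiquitin ligase and a co-repressor, fell in TLR7.1 RPM against WT RPM. Smurf2 went from 59.5 ± 28.8 to 23.1 ± 9.82 CPM (-1.42 ± 0.355, adjusted p = 0.0109) and Tgif1 from 105 ± 40.6 to 46.9 ± 21.9 CPM (-1.14 ± 0.262, adjusted p = 0.00563). Both pairs of groups overlapped, and both calls were lost when only those 12 libraries were fitted.

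Tgfbi encodes a secreted protein that binds integrins and collagen. It ranged from 654 to 785 CPM in WT Mono (median 746), 635 to 772 in TLR7.1 Mono (median 682), 394 to 1156 in WT RPM (median 541), 531 to 951 in iHPC (median 669) and 136 to 227 in TLR7.1 RPM (median 182). Of these groups 4 overlapped, and the fifth, TLR7.1 RPM, lay below every library of the others. Its mean was 180 ± 33.7 CPM (SD, n = 6) against 676 ± 290 in WT RPM, a 3.66-fold lower level and a log2 difference of -1.87 ± 0.187. Within TLR7.1 mice it was lower in RPM than in Mono by a log2 difference of -1.95 ± 0.184 and higher in iHPC than in RPM by 1.90 ± 0.185, in 6 of 6 mice in both. In WT mice the RPM to Mono difference was -0.16 ± 0.176, and 2 of 6 mice had the higher value in RPM. The genotype difference was -0.09 ± 0.173 in Mono, and the RPM difference minus the Mono difference was -1.79 ± 0.253.

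The WT RPM level varied most. Its highest value, 1156 CPM, came from the smallest library, with 108 Tgfbi counts among 95002, and without that mouse the genotype difference in RPM was -1.64. The spread between WT RPM libraries did not reach the TLR7.1 range, whose highest value was 227 CPM against a lowest of 394. On 13 December the RPM values were 394 and 902 CPM in WT and 185 and 206 CPM in TLR7.1. On 21 December 1 WT library was at 1156 CPM and 2 TLR7.1 libraries were at 136 and 227 CPM. On 26 December 3 WT libraries lay between 524 and 542 CPM and 2 TLR7.1 libraries at 150 and 179 CPM. The gap was thus present on every collection day.

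**Figure D3:**
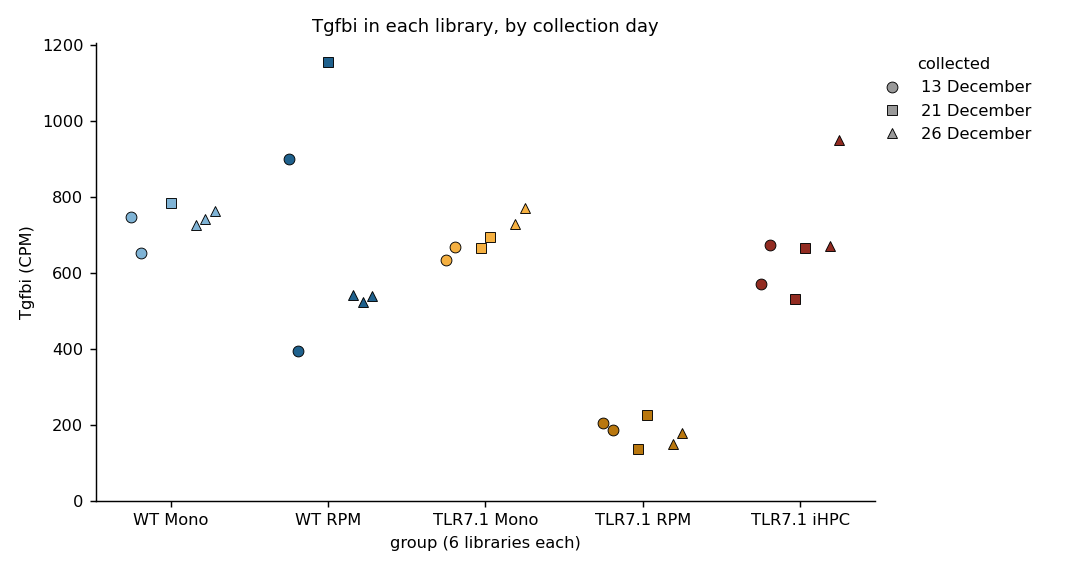
Tgfbi in CPM (vertical axis, linear) in each library of the 5 groups (horizontal axis), with the marker shape giving the collection day. The TLR7.1 RPM libraries lie between 136 and 227 CPM on all 3 days, below the lowest WT RPM library at 394 CPM.

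Other transcripts differed between the same RPM groups. The sum of 9 erythroid genes, all detected, was 241 to 1852 CPM in WT RPM and 1507 to 2348 CPM in TLR7.1 RPM. The sum of 10 genes of the response to tissue dissociation was 1160 to 2205 CPM in WT RPM and 405 to 1044 CPM in TLR7.1 RPM, without overlap. In the other TLR7.1 groups it was 1384 to 1874 CPM in iHPC and 3896 to 5658 CPM in Mono, both above RPM without overlap, and 7 of the 10 genes were called higher in iHPC than in RPM. Genes of T and NK cells, 1 of 7 of which was at 0 counts in each RPM group, summed to 8.6 to 262 CPM in WT and 4.12 to 1718 CPM in TLR7.1. The part of these transcripts in the Tgfbi differences was not tested. In the TLR7.1 RPM library with the T and NK cell sum of 4.12 CPM, that of mouse 24261, Tgfbi was at 150 CPM. The sum of 7 Ly6C-high monocyte genes was 67.7 to 282 CPM in WT RPM, 96.3 to 417 in TLR7.1 RPM and 79.6 to 433 in iHPC, against 4320 to 6122 CPM in the Mono libraries. The sum of 7 Ly6C-low monocyte genes, all detected, was 943 to 1297 CPM in WT RPM, 789 to 949 CPM in TLR7.1 RPM and 2485 to 3494 CPM in iHPC. Of these 7, 6 were called higher in iHPC than in RPM, and 1 was called higher and 2 lower in TLR7.1 than in WT RPM. The part of either list in the Tgfbi differences was not tested.

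Of 24 other genes known to respond to TGF-beta, 11 were tested, and in TLR7.1 RPM against WT RPM 2 were called higher and 1 lower, beside 4.48% and 3.77% of all genes. Junb, an AP-1 subunit that is also 1 of the 10 dissociation genes, fell from 170 ± 53.6 to 91.9 ± 24.5 CPM (-0.81 ± 0.177, adjusted p = 0.00349). Its exons share 7.52% of their bases with Prdx2, a gene on the opposite strand that is abundant in red cells, and the call was lost in a fit of those 12 libraries alone. Cdkn1a (p21, a brake on the cell cycle) was at 2.90 ± 3.11 CPM in WT and 20 ± 20.3 in TLR7.1 RPM (2.33 ± 0.595, adjusted p = 0.0123), and its call was lost without mouse 24107 (1.53). Runx3, a transcription factor, was at 3.96 ± 6.66 and 27.9 ± 20.8 CPM (2.26 ± 0.616, adjusted p = 0.0189), and its call was lost without mouse 24214, 24308 or 24415 (1.91 to 2.09). The RPM library of mouse 24107 had the highest T and NK cell sum, 1718 CPM. The Runx3 call held without that mouse. The part of T and NK cell transcripts in the Cdkn1a and Runx3 differences was not tested.

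Between cell types this list moved in both directions. In RPM against Mono, 4 of 11 were higher and 7 lower in WT, beside 23.7% and 22.5% of all genes, and 3 higher and 6 lower in TLR7.1, beside 23.9% and 22.6%. In iHPC against Mono 4 were higher and 6 lower, beside 19.3% and 19.4%. Fn1 (fibronectin) averaged 986 ± 175 CPM in the monocytes of WT and 960 ± 158 CPM in those of TLR7.1 mice and did not exceed 2.17 CPM in any RPM library or 8.17 CPM in any iHPC library. Ahnak averaged 936 ± 77.6 CPM in WT Mono and 30.4 ± 37.6 in WT RPM (-4.88 ± 0.471, adjusted p = 5.37e-10). Angptl4 and Pdgfb, which encode secreted factors, went the other way. Angptl4 averaged 1.74 ± 1.98 CPM in WT Mono and 87.7 ± 37.3 in WT RPM (5.58 ± 0.685, adjusted p = 3.42e-08). Pdgfb averaged 5.32 ± 4.97 CPM in TLR7.1 Mono and 100.3 ± 24.5 in iHPC (4.26 ± 0.545, adjusted p = 1.19e-07). In iHPC against RPM, 4 were higher and 1 lower, beside 13.6% and 13.5% of all genes. Runx1, a blood cell transcription factor, rose from 63.8 ± 34.0 to 232 ± 79.5 CPM (1.89 ± 0.258, adjusted p = 6.60e-07), higher in 6 of 6 mice and without overlap. The sum of 10 megakaryocyte and platelet genes was 3.09 to 33.4 CPM in WT Mono and 225 to 520 in WT RPM. It was 2.40 to 18.7 CPM in TLR7.1 Mono, 403 to 490 in TLR7.1 RPM and 200 to 299 in iHPC. Of the 6 tested, 6 were called higher in iHPC than in Mono. The part of these transcripts in the Pdgfb difference was not tested.

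Genes that depend on TGF-beta in microglia were mostly too low to test, 3 of 10. Gpr34 and P2ry12, receptors typical of resting microglia, were higher in WT RPM than in WT Mono. Gpr34 averaged 217 ± 106 against 35.5 ± 14.5 CPM (2.60 ± 0.408, adjusted p = 3.24e-06) and P2ry12 152 ± 45.8 against 41.9 ± 15.0 CPM (1.88 ± 0.367, adjusted p = 8.20e-05). In TLR7.1 mice Gpr34 was again called higher in RPM than in Mono (2.37 ± 0.419, adjusted p = 1.99e-05). P2ry12 was not, at means of 73.4 and 64.9 CPM. Both genes were lower in iHPC than in TLR7.1 RPM: Gpr34 was at 28.8 ± 15.4 against 95.9 ± 57.9 CPM (-1.67 ± 0.416, adjusted p = 0.00246) and P2ry12 at 23.7 ± 16.8 against 73.4 ± 40.0 CPM (-1.70 ± 0.397, adjusted p = 0.00133). The groups overlapped for both, and P2ry12 was higher in iHPC in 1 of 6 mice. With the library of mouse 24261 as the sole iHPC sample, the P2ry12 difference was -0.89. The part of megakaryocyte and platelet transcripts in the P2ry12 differences was not tested. Cx3cr1, the fractalkine receptor, was instead higher in iHPC, at 196 ± 66.3 CPM against 2.21 ± 3.82 in RPM (6.07 ± 0.538, adjusted p = 1.06e-10). Its level in Mono was 418 ± 55.0 CPM in WT and 286 ± 74.2 in TLR7.1.

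In the activin and BMP branch, 11 of 22 genes were tested. Smad1, a transducer of BMP receptors, rose in iHPC to 319 ± 81.2 CPM, from 103 ± 54.0 in RPM (1.66 ± 0.302, adjusted p = 6.37e-05) and from 41.3 ± 10.7 in Mono (2.93 ± 0.310, adjusted p = 2.37e-09), without overlap and in 6 of 6 mice. With the library of mouse 24261 alone as iHPC, the difference from Mono kept its direction and that from RPM was 1.64. Gdf15, a distant family member released under stress, was at 17.1 to 112 CPM in TLR7.1 RPM, at most 5.55 CPM in iHPC and at most 1.8 CPM in TLR7.1 Mono, and lower in iHPC than in RPM (adjusted p = 0.00102). Id2, an inhibitor of helix-loop-helix factors, averaged 972 ± 147 CPM in WT RPM, 896 ± 171 in TLR7.1 RPM and 739 ± 95.5 in iHPC, against 239 ± 28.0 and 282 ± 61.0 CPM in WT and TLR7.1 Mono. It rose over Mono in each of the 3 contrasts (log2 differences of 2.03, 1.67 and 1.39, adjusted p at most 1.04e-09). Id1 went the other way, from 26.7 ± 9.50 CPM in TLR7.1 Mono to 2.80 ± 2.57 in iHPC (-3.03 ± 0.668, adjusted p = 0.000468). No gene of this branch passed between genotypes.

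**Figure D4:**
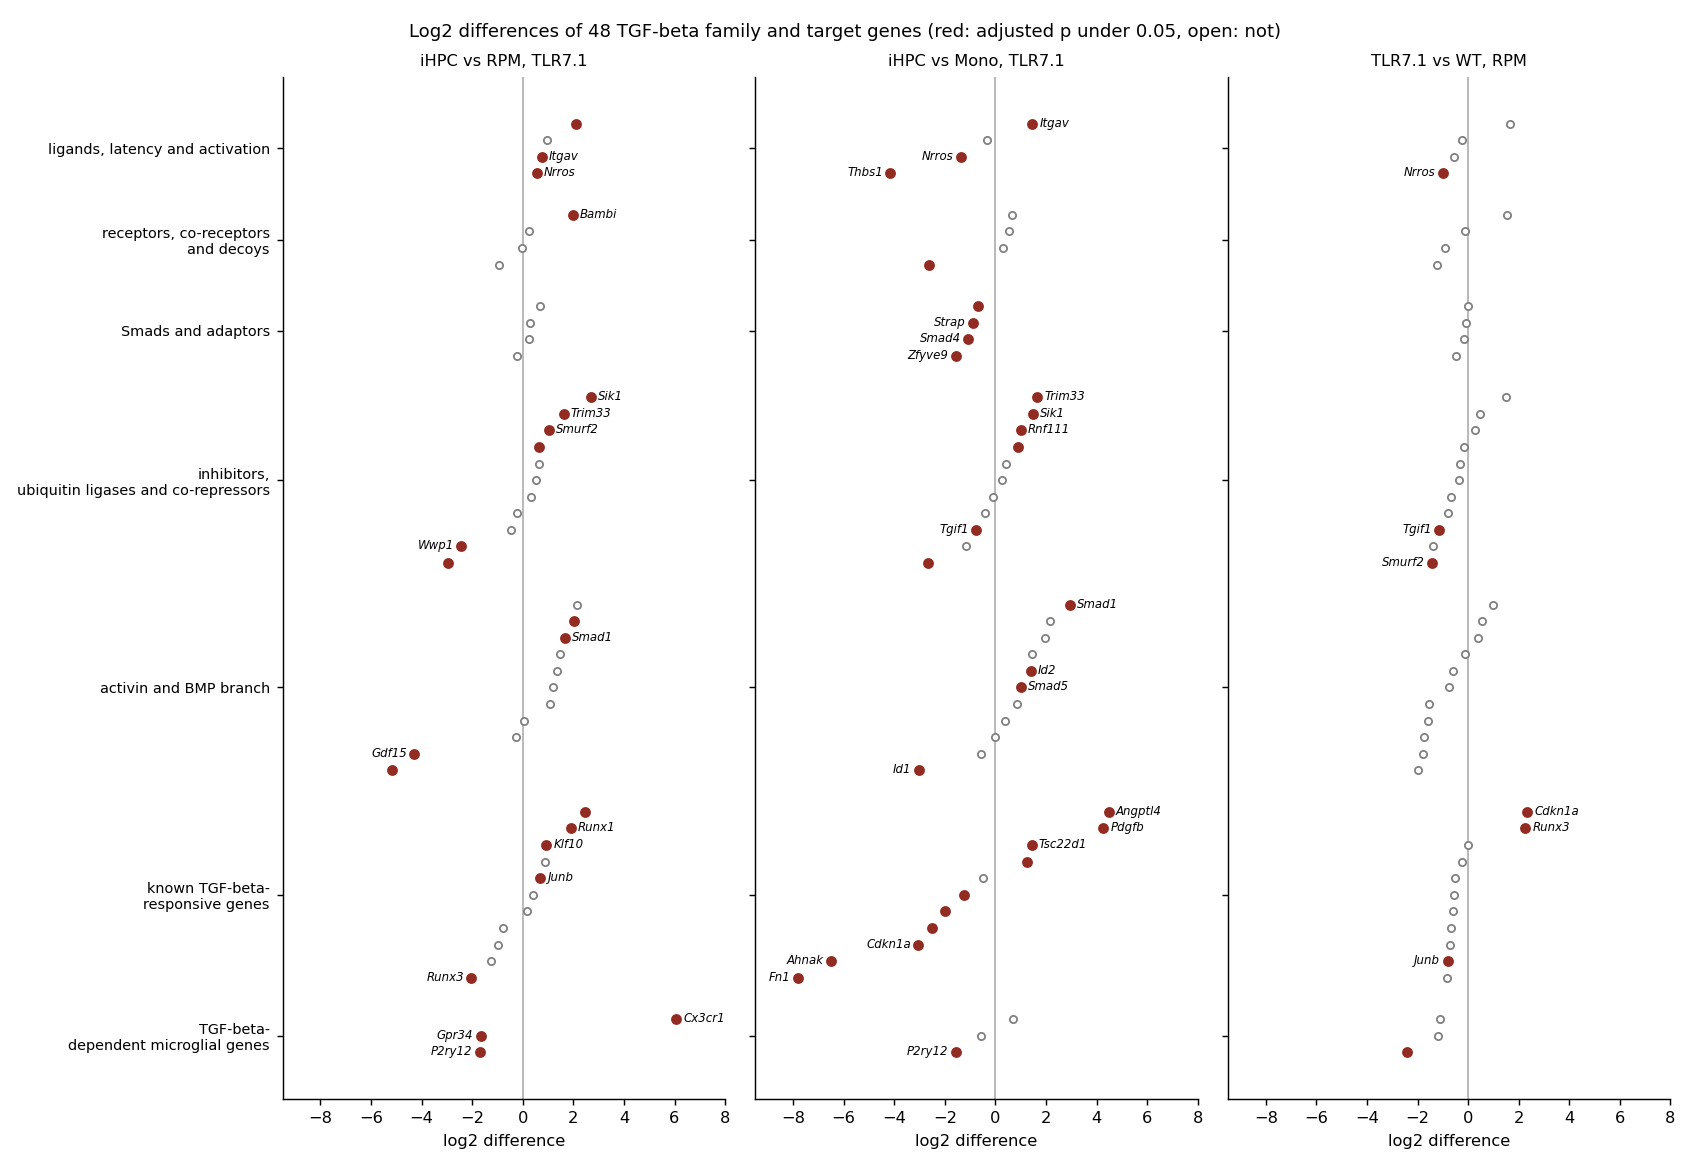
Log2 differences (horizontal axes) of the 48 tested genes of the 7 lists (rows, 1 point per gene) in 3 comparisons (panels), with red points past an adjusted p of 0.05, open points not, and names for genes at 20 CPM or more in the higher group chosen by size. Red points are 22 of 48 in iHPC against RPM, where 27.1% of all genes were called, 29 of 48 against Mono (38.7%) and 7 of 48 between the RPM groups (8.25%).

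Over all 7 lists, 48 of 92 genes were tested, and the other 44 were too low. In iHPC against RPM 15 were called higher and 7 lower, with a median log2 difference of 0.53 against -0.00475 over all genes, and with 13.6% and 13.5% of all genes called in those directions. In iHPC against Mono 12 were higher and 17 lower (median -0.05), beside 19.3% and 19.4% of all genes. In RPM against Mono 11 were higher and 19 lower in TLR7.1 (median -0.56), beside 23.9% and 22.6% of all genes, and 15 higher and 18 lower in WT (median -0.32), beside 23.7% and 22.5%. The medians over all genes in these contrasts lay between -0.03 and 0.00471. In TLR7.1 against WT RPM 2 were higher and 5 lower (median -0.55 against -0.01 over all genes), beside 4.48% and 3.77% of all genes, and 36 of the 48 had a value below 0, as had 50.7% of all genes. That count of 7 was 0 when only the 12 RPM libraries were fitted, where 160 genes in all were called. It was 13 without mouse 24380, where 1131 genes in all were called, against 910 in the main fit. In Mono no list gene passed between genotypes by edgeR or by DESeq2, and 4 of 48 were under an unadjusted p of 0.05, beside 7.46% of all genes. For the genotype difference in RPM minus that in Mono, edgeR called none and DESeq2 called 3, and 11 of 48 were under an unadjusted p of 0.05, beside 10.8% of all genes. The basophil-poor iHPC library of mouse 24261 was also fitted as the sole iHPC sample. All 22 genes called in iHPC against RPM kept their direction there, as did all 29 called against Mono. That library is also among those that gave the calls, so the shared direction is no independent check of them.

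The genes whose levels followed each member most closely over the 30 libraries were found by Pearson's r of log2(CPM + 1) among 8827 genes. For Tgfbi they were Sorl1 (0.88), Mctp1 (0.84), Neat1 (0.83), Trps1 (0.81) and Lrrc8d (0.80). Sorl1, a sorting receptor, averaged 400 CPM in the monocytes and 199 CPM in the RPM of WT mice, and 291, 79.6 and 345 CPM in the Mono, RPM and iHPC of TLR7.1 mice. For Tgfbr1 they were Abr (0.91), Esam and Kcnj2 (0.86 each). For Tgfbr2 they were Snn (0.96), Clec4b1 (0.95) and Ptprm (0.95), the last of which was at 0 CPM in both Mono groups and at 153 to 166 CPM on average in the other 3. For Skil they were Dusp16 (0.81), Retreg1 (0.79) and Ddhd1 (0.79), for Tgfb1 they included Sulf2 (0.80) and Stom (0.78), for Ski Cerk (0.70), Nectin4 (0.68) and Itpripl1 (0.67), and for Smad3 Dmap1 (0.87), Praf2 and Haus7 (0.86 each). The points share the 5 groups, the mice and the depth of each library.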

How the data were processed

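The authors deposited raw read counts, 1 whole number for each Ensembl gene in each of 30 libraries of 500 cells, made with SMART-Seq v4 and Nextera XT per the labels' protocols. Per the submitters' processing notes the build was NCBIM37, and the tools named there are TopHat, Bowtie, HTSeq 0.4.1, SAMtools, Picard, FastQC and CASAVA 1.8.2. The strand setting is not given in the sources used here, so genes that overlap on opposite strands cannot be told apart. Symbols came from GENCODE M21 (32919 identifiers, 99.11% of counts), and promoter sequences from RefSeq on GRCm38.p6, which is not the build of the counts.

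CPM are edgeR's counts per TMM-scaled library total, at the usual scale, and limits for 0 counts in single libraries use the same scaled totals. Genes kept by filterByExpr (11030) were scaled by TMM and fitted with edgeR's quasi-likelihood model (edgeR 4.0.16, limma 3.58.1, R 4.3.3), with 1 mean per group over all 30 libraries. Tests were two-sided, with Benjamini-Hochberg adjustment over all genes tested and calls at an adjusted p under 0.05. The fit was tested on simulated data, with 50 genes changed by each known fold between the RPM groups. It recovered 32% of 2-fold increases, 20% of 2-fold decreases, 86% of 4-fold increases and 70% of 4-fold decreases. A gene not called between the RPM groups may therefore still differ. The changed genes were drawn from those above a count limit, so recovery at lower counts was not measured. Of the 10547 unchanged genes 0.057% were called. Apart from the changes, each simulated gene had the same mean level and the same dispersion in all groups. That share therefore does not give the rate of false calls in the real RPM libraries. Alternatives were RLE scaling, no filter, only the groups compared, collection date as a term, the mouse as a block, no libraries under 300000 counts, each mouse left out, and DESeq2 1.42.0. A fit with the iHPC library of mouse 24261 alone was added after seeing the data. Tables and plots used Python 3.11.15, pandas 2.3.3, numpy 2.4.6 and matplotlib 3.10.9.

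The members and lists were chosen with earlier results of these data known. Named pathway genes were called at 20 CPM or more in the higher group, up to 3 per direction in each list and comparison. Smad5, Ldlrad4, Id3 and Klf10 also met this rule, and their values are not given. A named gene's values are also given in other comparisons. Of the genes most like a member in level, 1 is not reported here. The titles give each library's mouse, which pairs libraries of the same animal. Residual correlations within mice ran from -0.08 to 0.194. Genotypes were compared between different mice. Totals of 95002 to 1932427 counts set the precision, and limits for 0 counts cover counting error only.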

Additional observations from a re-analysis of the deposited data

Results flagged for a closer look

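Tgfbi in the iHPC library of mouse 24380 was at 951 CPM, far from the other 5 iHPC libraries, which lay between 531 and 674 CPM. It was the 1 library flagged in 40 gene and group pairs looked at, where chance alone flags about 1 in 20. The other 5 libraries too lay above every TLR7.1 RPM library, whose highest value was 227 CPM.

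The genotype difference of Tgfbi in RPM minus that in Mono was -1.79 ± 0.253 on the log2 scale. The RPM difference was -1.87 ± 0.187 and the Mono difference -0.09 ± 0.173. Tgfbi was chosen with this difference known, so the values are a description and no test of them is given.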

How the results depend on the processing

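Member log2 differences were recomputed 868 times under the alternatives. None changed sign where called, and 2 moved by more than the replicate spread, both in iHPC against Mono with the single iHPC library (Tgfbr1 2.08 and Smad3 -0.04). The count of list genes called was less stable, and the count over all genes moved between settings too. In iHPC against RPM the list count was 12 (37 genes tested) with only the groups compared and 16 to 23 with a mouse left out, against 22. Over all genes the counts there were 1753 of 9079 and 2509 to 2882, against 2993 of 11030. For iHPC against Mono the list count was 28 to 31 with a mouse left out, against 29. The count over all genes was 3571 to 3921, against 4270. Between genotypes in Mono the list count was 0, but 1 with no filter and 5 with only the groups compared. Those fits called 214 and 737 genes in all, against 232. In RPM the list count was 7, but 0 with only the groups compared (30 tested), 13 without libraries under 300000 counts and 11 by DESeq2. Those fits called 160 of 7945, 1154 of 11188 and 1271 of 11030 genes in all, against 910. With a mouse left out the list count was 5 to 13, the 13 without mouse 24380. The count over all genes was then 584 to 1354. For the difference of genotype effects the list count was 0, but 1 with no filter, 1 without libraries under 300000 counts and 3 by DESeq2. It was 0 to 2 with a mouse left out (2 without 24068 or 24117, 1 without 24107 or 24380). The counts over all genes were 68, 96, 209 and 29 to 145, against 76. The cause of these changes was not tested.

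With the replicate block, Smad7 in RPM against Mono of TLR7.1 mice (1.44) was no longer called, nor was Tsc22d1 there (0.86, adjusted p = 0.0796, edgeR). In WT the same held for Rnf111 (0.52), Tgfbrap1 (0.86) and Itgav (0.46). The block changed no other call of a gene that was called without it and named or listed among the 9. No paired analysis was possible for the genotype comparisons because they are between different mice. The Tgfbr1 difference between Mono groups missed the threshold in 12 alternatives (-0.78 to -0.66), and the RPM libraries, at a WT median of 544757 counts, limit Smad3 and Smad7.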
